A study of Mus musculus with 9 samples.

Results

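The genes described here are 32 genes of cholesterol and fatty acid synthesis and of its control by sterol regulatory element binding proteins (SREBPs), taken by gene symbol from the 24421 rows of the deposited count table. All 32 were present, with counts of at least 303 in each library, and all 32 were among the 13270 genes tested. Bulk RNA sequencing was done on cells grown from lineage-depleted mouse bone marrow for 5 days with interleukin 3, interleukin 6 and stem cell factor, a mixture that expands myeloid blast-like cells. The 9 libraries form 3 groups of 3: wild-type (WT) C57BL/6 cells with vehicle, Tet2-/-Flt3ITD cells with vehicle, and Tet2-/-Flt3ITD cells with SHP099 for 24 h. Tet2 encodes a DNA demethylase, and Flt3ITD is an internal tandem duplication in a receptor tyrosine kinase that signals constantly. SHP099 is an allosteric inhibitor of SHP2, a tyrosine phosphatase through which receptor kinases activate RAS and ERK. The labels give no dose and no SHP099-treated WT group, so the drug was compared with vehicle in mutant cells only. The mutant cultures came from individual mice, and for the WT cultures no individual mice are named, so the spread behind each p-value is that among these samples and may be technical.

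Cholesterol and fatty acids are both built from acetyl-CoA in the cytosol. The mevalonate pathway makes isoprenoid units that are joined to squalene, closed to lanosterol and trimmed to cholesterol, while acetyl-CoA carboxylase and fatty acid synthase make palmitate, which elongases and desaturases modify. SREBP precursors are held in the endoplasmic reticulum by SCAP and INSIG proteins when sterols are plentiful. When sterols run low they are carried to the Golgi, cut, and switch on genes of both branches, with SREBP1 weighted to fatty acid genes and SREBP2 to sterol genes. Growth factor signalling is known to raise SREBP activity, and dividing blood cells need both products for membranes.

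The totals per library ran from 27242168 to 40681117 counts in WT, from 30982845 to 41567622 in mutant vehicle and from 41053983 to 45810089 in SHP099-treated cells. In CPM (counts scaled to the library total, as edgeR's counts-per-million function gives them), the deleted gene Tet2 stood at 34.8, 31.8 and 33.2 in WT, at 14.7 to 17.0 in mutant vehicle and at 10.9 to 13.2 in the treated libraries. Each mutant library lay below each WT one. Myeloid identity genes were high in all groups, with Mpo, the myeloperoxidase of granulocyte precursors, at 5782 to 11650 CPM, and Cd3e, a T cell gene, had at most 1 count in a library. SHP099 replicate 3 stood apart in the share of the ribosomal RNA precursor Rn45s, 4.33% of its counts against 0.276% to 0.734% in the other libraries, so results are also given without it. The 11 mature neutrophil markers summed to 24180 to 30610 CPM in WT, 17650 to 18720 in mutant vehicle and 25520 to 30500 in SHP099-treated libraries. The 8 monocyte and macrophage markers summed to 856 to 1087, 987 to 1065 and 1403 to 1516 CPM in the same order, and the 8 mast cell and basophil markers to 2102 to 2356, 1103 to 1563 and 1603 to 2079 CPM. With SHP099 against vehicle 4, 3 and 4 markers of these lists were called higher and none lower. With mutant against WT, 7, 1 and 6 were lower and 1, 1 and 0 higher, in the order neutrophil, monocyte, mast cell. Of all tested genes, 8.81% were higher and 13% lower with SHP099, and 16.9% and 14.7% with genotype. With SHP099, 2 of 5 megakaryocyte and 1 of 9 myeloid progenitor and blood identity markers were also higher, and none lower. All 5 megakaryocyte markers were lower in mutant than WT cells, with sums of 2384 to 3009 CPM in WT, 1061 to 1431 in mutant vehicle and 1345 to 1777 in SHP099-treated libraries. So were the 4 erythroid markers tested, and the list summed to 57.9 to 94.8, 16.5 to 33.5 and 22.6 to 38.3 CPM, with the hemoglobin genes Hba-a1 and Hbb-bt at 0 counts in all libraries. The part of this shift in the results below was not tested, and in bulk samples fewer cells of a type and less RNA per cell cannot be told apart.

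The upstream sequences of 4 members are shown because SREBPs act together with other factors at short promoter elements: Fasn fell most with SHP099, Ebp and Sc5d rose, and Hmgcs1 alone held a match to the sterol regulatory element core. They are bases -200 to -1 before the RefSeq start on GRCm38.p6, the assembly also called mm10. Fasn is chr11:120824548-120824747 on the minus strand, Ebp chrX:8193513-8193712 on the minus strand, Sc5d chr9:42264301-42264500 on the minus strand and Hmgcs1 chr13:119690151-119690350 on the plus strand. Capitals mark matches on either strand to CCAAT (the NF-Y box), GGGCGG (the SP1 box), CACGTG (the E box) and TCACNCCAC (the core of the sterol regulatory element), and in Fasn 2 NF-Y boxes on opposite strands overlap.
Fasn: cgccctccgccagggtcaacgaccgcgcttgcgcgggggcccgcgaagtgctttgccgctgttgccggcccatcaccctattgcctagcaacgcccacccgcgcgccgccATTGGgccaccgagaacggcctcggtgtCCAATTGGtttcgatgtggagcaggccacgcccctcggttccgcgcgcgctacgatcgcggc
Ebp: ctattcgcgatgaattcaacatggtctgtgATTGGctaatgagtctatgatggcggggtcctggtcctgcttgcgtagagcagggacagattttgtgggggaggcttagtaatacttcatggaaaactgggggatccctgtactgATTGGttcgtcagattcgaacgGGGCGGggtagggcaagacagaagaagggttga
Sc5d: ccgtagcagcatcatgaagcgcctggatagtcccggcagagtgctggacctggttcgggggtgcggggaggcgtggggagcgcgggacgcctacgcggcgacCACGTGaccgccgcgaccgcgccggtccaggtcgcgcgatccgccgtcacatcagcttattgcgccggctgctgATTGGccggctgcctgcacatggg
Hmgcs1: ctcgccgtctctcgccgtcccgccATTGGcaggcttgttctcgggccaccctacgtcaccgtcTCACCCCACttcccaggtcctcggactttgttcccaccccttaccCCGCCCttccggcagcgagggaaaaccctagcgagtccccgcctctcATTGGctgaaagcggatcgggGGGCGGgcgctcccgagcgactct

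RefSeq windows of 250 bases before to 50 after the start were found for 26 of the 32 members, and Fdps, Fdft1, Sqle, Stard4, Scd2 and Fads1 had no entry. The NF-Y box was in a window of 22 of the 26 genes, against 41.1% of all 27025 genes with a window. The SP1 box was also in 22 of 26, against 38.2%, and the E box in 5 of 26, against 8.09%. The sterol regulatory element core was in 1 of 26, Hmgcs1, against 1.44%. In Fasn the NF-Y boxes began at -90, -62 and -59, in Ebp at -170 and -55, and in Hmgcs1 the element core began at -137. These matches describe letters in a short window, not bound sites.

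Levels between genes are compared per kilobase of the longest coding transcript. In WT cells Fdps, which makes farnesyl diphosphate, was highest at 196 CPM per kb, followed by Lbr at 146, Scd2, a stearoyl-CoA desaturase, at 103 and Acly, which supplies cytosolic acetyl-CoA, at 97.6. Idi1, the isopentenyl diphosphate isomerase, was lowest at 3.66 CPM per kb, with Ggps1 at 4.29 and Insig2 at 5.83. Of the SREBP genes, Srebf2 stood at 64.7 and Srebf1 at 36.6 CPM per kb, and Insig1 at 22.7 was above Insig2. Within each group the order at the bottom differed little, with Ggps1 lowest in SHP099-treated cells at 4.19 CPM per kb and Idi1 at 4.28. The 32 genes together made up 0.437% to 0.461% of counts in WT, 0.473% to 0.497% in mutant vehicle and 0.403% to 0.459% in SHP099-treated libraries.

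**Figure D1:**
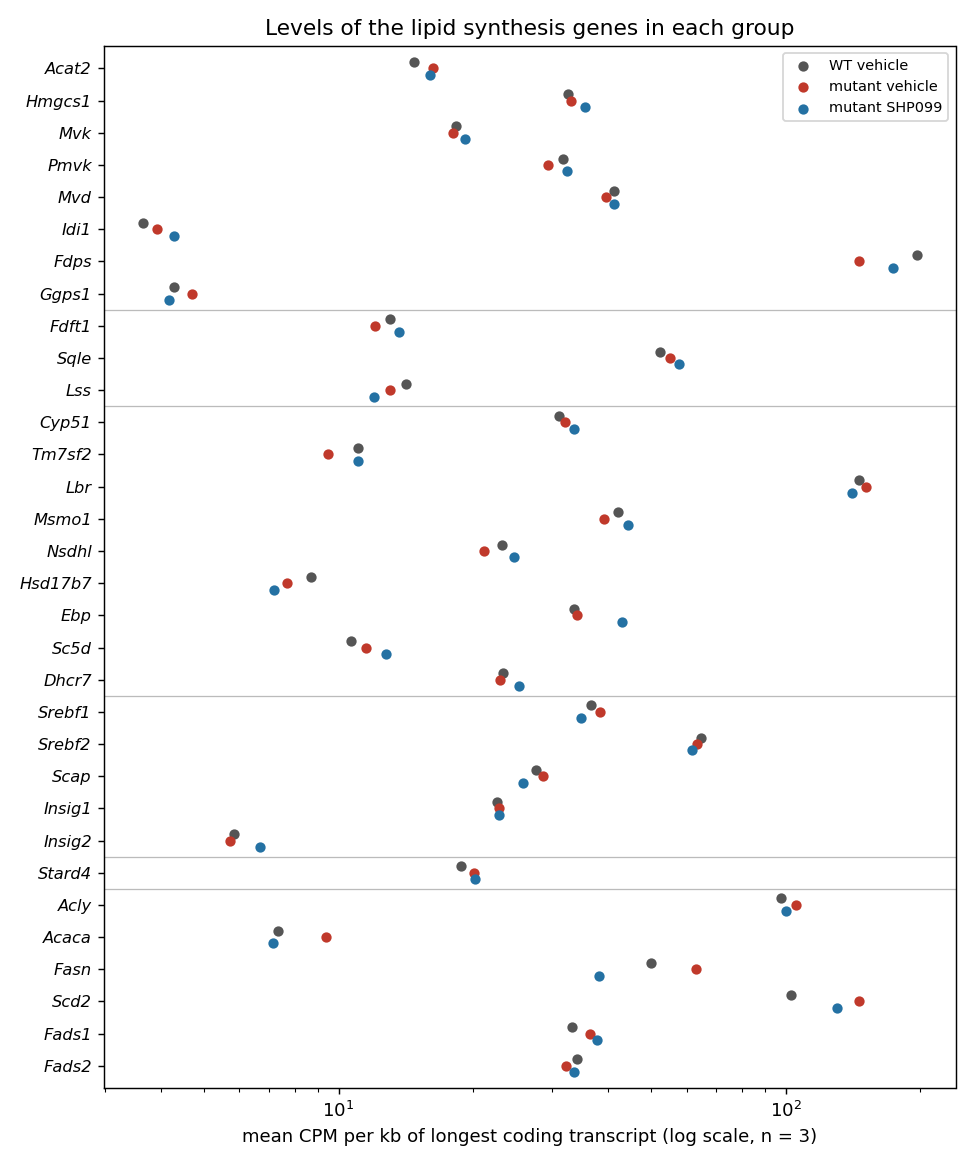
Mean CPM per kilobase of the longest coding transcript (log axis, n = 3 libraries) for the 32 genes in the 3 groups, in pathway order with lines between roles. Fdps, Lbr, Scd2 and Acly are the highest in each group, and Fasn, Acaca, Scd2 and Fdps have the widest gaps between groups.

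SHP099 was set against vehicle to see what it changes in leukemic myeloid cells. The 2 genes that commit acetyl-CoA to fatty acids, Acaca and Fasn, fell, and so did Scap, while 8 genes of the sterol branch rose by 10.2% to 25.6%. Of these calls, 5 held in all 17 alternative fits and 6, Scap among them, did not. Of the 32 members, 8 (25%) were higher and 3 (9.38%) lower at an adjusted p under 0.05 in edgeR's quasi-likelihood test, against 8.81% of all tested genes higher and 13% lower. The median log2 fold change of the members was 0.06, and that of all tested genes was 0.00. Every treated library lay above every vehicle library for 10 members, against 2430 of the 13270 genes tested. The reverse held for 8 members, against 2977 genes, which is near the background. All 8 higher members lie in the mevalonate, squalene or post-lanosterol steps, where 20 members were tested. Mutant libraries of 1 number varied alike across treatments, and in a fit blocked on the number 11 members were higher and 8 lower, against 21.5% and 21.3% of all genes tested in that fit, so the lower count was near the background. Without SHP099 replicate 3, 5 were higher and 2 lower, against 5.04% and 8.19% of all genes. With a trend on transcript length and GC content removed, 3 were higher and 2 lower. The shares of all genes were then 7.56% and 9.03%, so both counts were near the background.

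Fasn encodes fatty acid synthase, the enzyme that assembles palmitate (chromosome 11, 120805846 to 120824547, GRCm38). Its levels were 668, 600 and 634 CPM in the mutant vehicle libraries and 411, 377 and 364 CPM in the SHP099 libraries of the same numbers. The groups did not overlap, and each treated library also lay below each WT library, which had 480, 527 and 500 CPM. Fasn fell by 0.72 ± 0.06 on the log2 scale (SE; edgeR adjusted p = 0.00023), a level 39.4% lower, and by 0.68 without SHP099 replicate 3. With a smooth trend on transcript length and GC content removed from each library, it fell by 0.47 ± 0.05 (adjusted p = 0.0015).

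Acaca encodes acetyl-CoA carboxylase, which makes the malonyl-CoA that fatty acid synthase uses (chromosome 11, 84129672 to 84401651). It stood at 88.2, 89.1 and 89.8 CPM with vehicle and 68.3, 69.8 and 65.7 CPM with SHP099. Every treated library was below every vehicle library, and the vehicle libraries differed by less than 2 CPM, so the gap was wide against the spread. Acaca fell by 0.39 ± 0.04 (adjusted p = 0.00039), by 0.36 without SHP099 replicate 3, and by 0.18 ± 0.03 with the length and GC trend removed (adjusted p = 0.0079).

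The other 4 fatty acid members did not pass the test with SHP099. Scd2 changed by -0.16 ± 0.07 (adjusted p = 0.14), from 807, 756 and 821 CPM to 746, 749 and 639 CPM, with SHP099 replicate 3 the lowest. These Scd2 levels did not overlap, and the blocked fit called the gene lower (adjusted p = 0.011, and 0.19 blocked with the length and GC trend removed). Acly, at 462 to 470 CPM with vehicle and 429 to 464 CPM with SHP099, overlapped between the groups. The polyunsaturated fatty acid desaturase genes Fads1 and Fads2 changed by 0.05 ± 0.05 and 0.06 ± 0.04, and their libraries overlapped too. So within the fatty acid branch the fall passed the unblocked test for the carboxylase and the synthase but not for the acetyl-CoA supply or the desaturases.

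**Figure D2:**
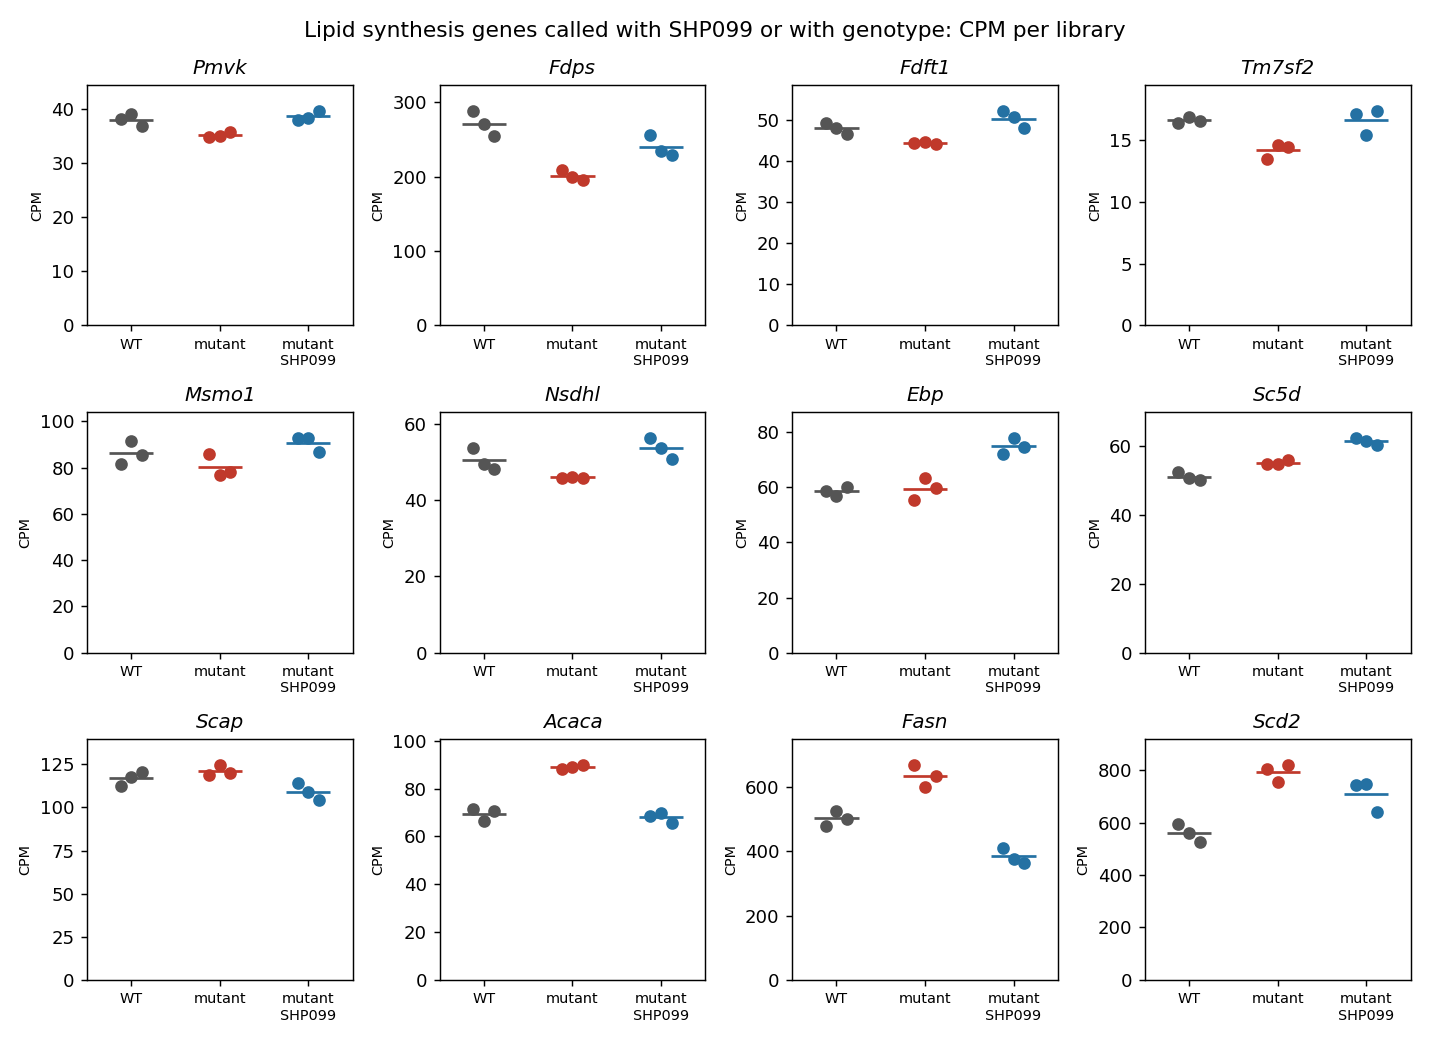
CPM of the 12 members called with SHP099 or with genotype, 1 point per library in replicate order, with the group mean as a line and axes from 0. Acaca and Fasn are highest in the mutant vehicle libraries, Ebp and Sc5d are highest in the SHP099-treated libraries, and Fdps, Tm7sf2, Nsdhl, Fdft1 and Pmvk are lowest in the mutant vehicle libraries.

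In the mevalonate pathway, 2 of 8 members rose with SHP099 and none fell in the unblocked fit, against 8.81% and 13% of all tested genes. In the blocked fit the shares of all genes were 21.5% and 21.3%. Fdps (chromosome 3, 89093588 to 89101959) went from 209, 199 and 196 CPM to 256, 235 and 229 CPM. Each treated library exceeded each vehicle library (0.26 ± 0.06, adjusted p = 0.013), and without SHP099 replicate 3 the change was 0.29. Fdps has a transcript of 1382 nucleotides, and with the length and GC trend removed the change was 0.16 ± 0.06 (adjusted p = 0.11). The blocked fit called Fdps higher (adjusted p = 3.1e-06, and 0.00073 with the trend also removed). Pmvk, the phosphomevalonate kinase, went from 34.7, 34.9 and 35.6 CPM to 38.0, 38.3 and 39.6 CPM without overlap (0.14 ± 0.04, adjusted p = 0.048). Its call was lost in 11 of 17 alternatives, among them every fit without 1 mutant library, and its value was 0.05 with the length trend removed.

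Hmgcs1, which makes HMG-CoA and is a classical SREBP target, had 119, 115 and 111 CPM with vehicle and 124, 127 and 118 CPM with SHP099. It changed by 0.10 ± 0.04 (adjusted p = 0.12), the groups overlapped, and the blocked fit called it (adjusted p = 0.042, and 0.0066 with the length and GC trend also removed). Mvk, Mvd, Idi1 and Acat2 overlapped between the groups, with changes of 0.09 ± 0.06, 0.06 ± 0.05, 0.12 ± 0.08 and -0.03 ± 0.07. Ggps1, which makes the geranylgeranyl diphosphate used to anchor small GTPases, lay lower in each treated library but did not pass (-0.17 ± 0.07, adjusted p = 0.11; blocked adjusted p = 0.031, and 0.22 with the trend also removed). By the unblocked test the pathway thus held no member that fell, while the blocked fit called Ggps1 lower.

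At the squalene steps, Fdft1, the squalene synthase (chromosome 14, 63145150 to 63179578), rose from 44.6, 44.7 and 44.3 CPM to 52.3, 50.7 and 48.1 CPM. The vehicle libraries were within 1 CPM of each other, and all treated libraries were above them (0.18 ± 0.04, adjusted p = 0.016). Fdft1 kept its call in all 17 alternatives, with values of 0.17 to 0.21. Sqle, the squalene epoxidase and a rate-controlling enzyme, overlapped between groups, at 142 to 166 CPM with vehicle and 148 to 174 CPM with SHP099 (0.07 ± 0.07, adjusted p = 0.55). Lss, which closes lanosterol, was lower in each treated library (-0.12 ± 0.04) but did not pass at an adjusted p of 0.095, and did in the blocked fit (adjusted p = 0.033) but not in the blocked fit with the length and GC trend removed (adjusted p = 0.13).

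After lanosterol, 5 of 9 members rose and none fell in the unblocked fit, against 8.81% and 13% of all tested genes. The blocked fit also called Dhcr7 higher and Lbr lower (adjusted p = 0.019 and 0.045). Ebp, the sterol isomerase (chromosome X, 8185329 to 8193512), had the largest rise of the 32 genes, from 55.3, 63.6 and 59.8 CPM to 72.0, 78.0 and 74.6 CPM. There was no overlap, and the change was 0.33 ± 0.05 (adjusted p = 0.0028), 25.6% higher. It was called in all 17 alternatives, at 0.33 without SHP099 replicate 3 and 0.25 with the length and GC trend removed. Sc5d, the lathosterol oxidase (chromosome 9, 42251595 to 42264256), went from 54.6, 54.7 and 56.0 CPM to 62.2, 61.4 and 60.1 CPM. Its rise of 0.15 ± 0.03 (adjusted p = 0.012) was also called in all 17 alternatives and was 0.23 with the length and GC trend removed. Sc5d has a transcript of 4787 nucleotides, the longest of the 8 that rose.

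Nsdhl, a dehydrogenase that removes methyl groups from sterols, went from 45.9, 46.1 and 45.9 CPM to 56.3, 53.6 and 50.8 CPM (0.22 ± 0.05, adjusted p = 0.015). The vehicle libraries were nearly equal and the treated ones all higher, and the adjusted p was 0.051 with the length and GC trend removed. In the blocked fit it was 0.00029, and 0.0034 with the trend also removed. Tm7sf2, a sterol reductase gene, went from 13.5, 14.6 and 14.4 CPM to 17.1, 15.4 and 17.4 CPM (0.23 ± 0.06, adjusted p = 0.032). Msmo1, the methylsterol oxidase, went from 85.8, 77.0 and 78.0 CPM to 92.9, 92.9 and 86.6 CPM (0.18 ± 0.06, adjusted p = 0.048). Tm7sf2 and Msmo1 did not overlap between the groups, but each call was lost in 7 of 17 alternatives, including without SHP099 replicate 3 (adjusted p = 0.12 and 0.056). The blocked fit called both (adjusted p = 0.0084 and 0.001, and 0.051 and 0.011 with the trend also removed).

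The other 4 genes of these steps did not pass. Cyp51, the lanosterol demethylase, overlapped between the groups (0.07 ± 0.05; adjusted p = 0.03 blocked with the trend removed), and Hsd17b7, a ketosteroid reductase, did too (-0.09 ± 0.10). Dhcr7, the reductase of the last step to cholesterol, was higher in each treated library, at 78.4, 68.5 and 67.3 CPM against 64.3, 63.2 and 66.8 CPM (0.14 ± 0.07, adjusted p = 0.16; blocked adjusted p = 0.019, and 0.06 with the trend also removed). Lbr, a nuclear envelope protein with the same sterol reductase activity as the Tm7sf2 product, was lower in each treated library (-0.11 ± 0.05, adjusted p = 0.16; blocked adjusted p = 0.045, and 0.026 with the trend also removed). The pair of reductase genes therefore pointed in opposite directions, and the difference between them was not tested.

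Among the control genes, Scap, the sterol sensor that escorts SREBPs, fell from 119, 125 and 120 CPM to 114, 109 and 104 CPM (-0.15 ± 0.04, adjusted p = 0.035). The groups did not overlap, but without SHP099 replicate 3 the adjusted p was 0.14, and with the length and GC trend removed the change was -0.07 (adjusted p = 0.25). The Scap call was lost in 10 of 17 alternatives and kept in the blocked fit (adjusted p = 0.0034, and 0.099 with the trend also removed). Srebf1 lay lower in each treated library, at 152, 147 and 150 CPM against 160, 160 and 177 CPM, and narrowly missed the threshold (-0.15 ± 0.05, adjusted p = 0.052; blocked adjusted p = 0.004, and 0.12 with the trend also removed). Srebf2 changed by -0.04 ± 0.05 and Insig1, an SREBP target that holds SCAP back, by -0.01 ± 0.10, both with overlap. Insig2 was higher in each treated library (0.22 ± 0.08, adjusted p = 0.09; blocked adjusted p = 0.0069, and 0.017 with the trend also removed). Stard4, a sterol transfer protein gene, was at 99.5 to 108 CPM with vehicle and 102 to 104 CPM with SHP099 (0.00 ± 0.04).

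**Figure D3:**
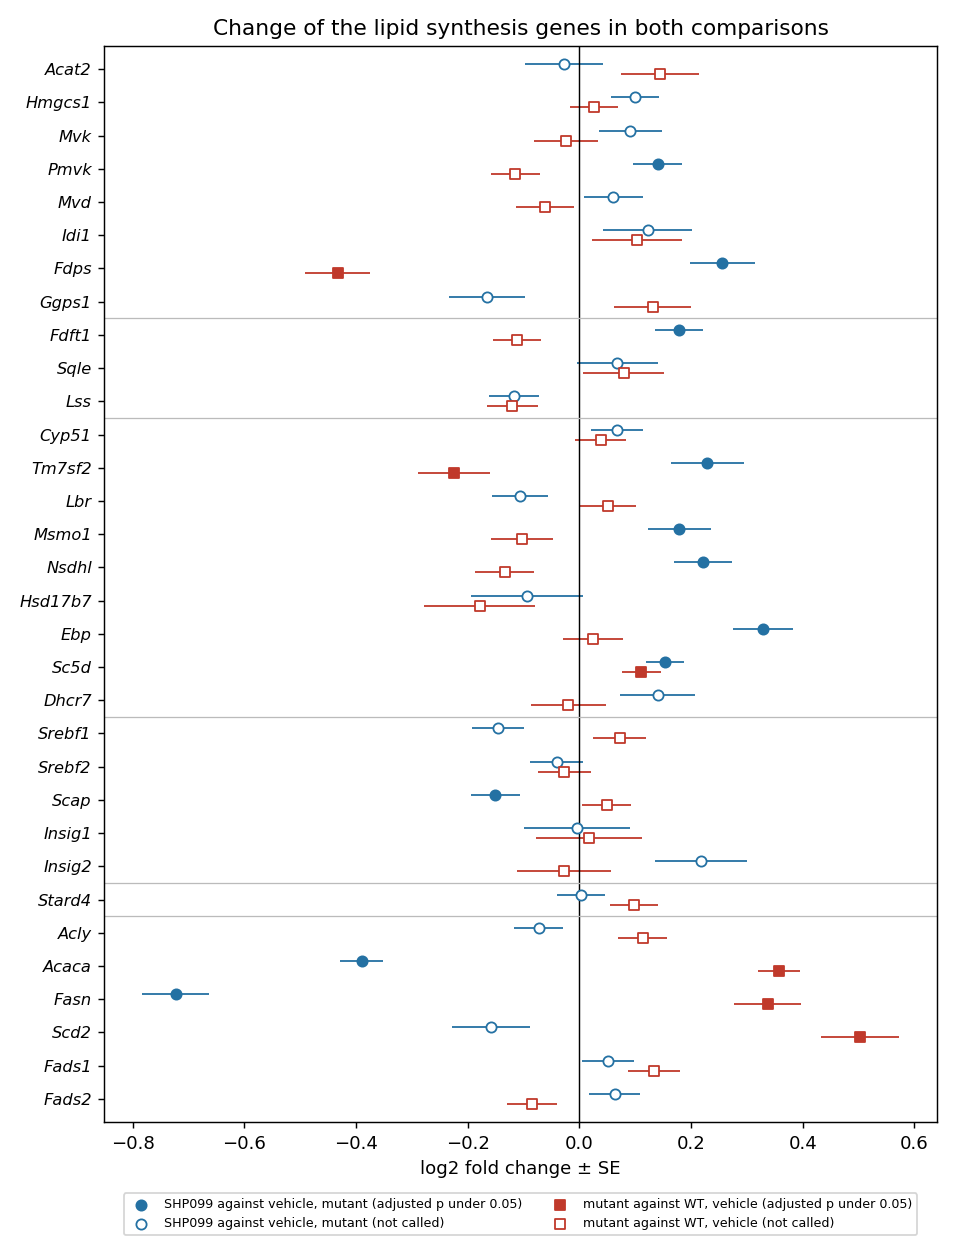
Log2 fold change ± SE (x axis) of the 32 genes in pathway order for SHP099 against vehicle (circles) and mutant against WT (squares), filled where the adjusted p was under 0.05. Acaca and Fasn are filled on opposite sides of 0 in the comparisons, as are Fdps and Tm7sf2 the other way round, and both comparisons use the mutant vehicle libraries.

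Direction went with transcript length among these genes as it did in the whole table. The 8 that rose had transcripts of 1194 to 4787 nucleotides with a median of 1894, and the 3 that fell had 4227 to 10050. Across the 32 genes, which share libraries and are not independent, the Spearman correlation between transcript length and log2 fold change was -0.73, and across 12801 genes with a length it was -0.34. Removing the trend left 3 members higher, Fdft1, Ebp and Sc5d, and 2 lower, Fasn and Acaca. The shares over all genes in that fit were 7.56% higher and 9.03% lower, so both member counts were near the background. With the trend removed and the block in the fit, 9 were higher and 3 lower, against 21.7% and 18.6% of all genes. The correlation across the 32 genes was then -0.47 in the fit without the block. The part of transcript length in each change beyond these values was not tested.

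**Figure D4:**
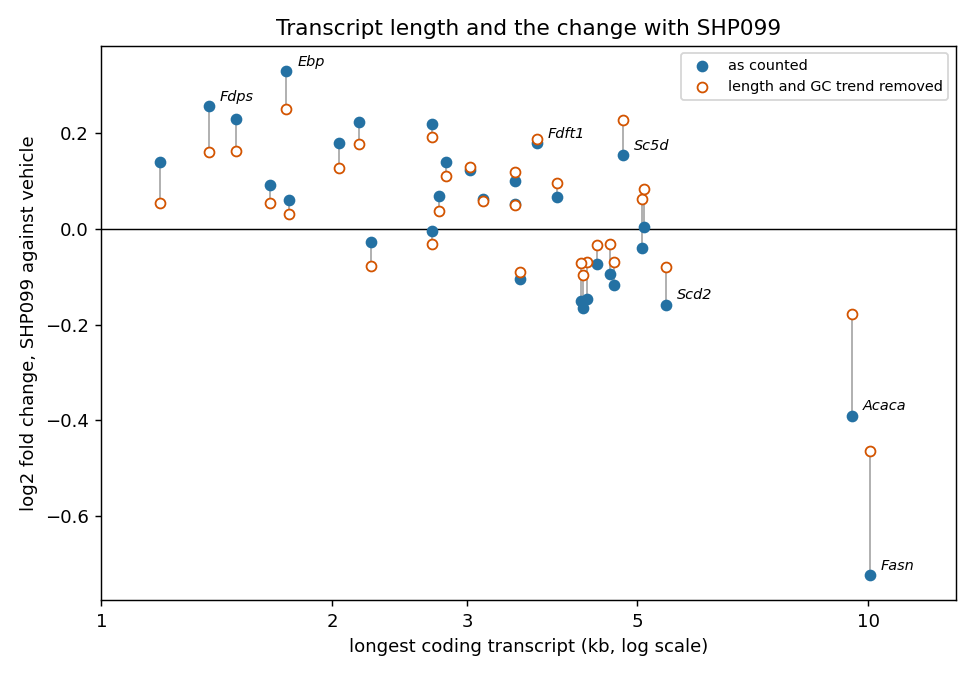
Log2 fold change with SHP099 (y axis) against the longest coding transcript in kb (log x axis) for the 32 genes, as counted (filled) and with the length and GC trend removed (open), joined by a line per gene. Acaca and Fasn, the longest transcripts, move from -0.39 to -0.18 and from -0.72 to -0.47 and stay the lowest, Ebp moves from 0.33 to 0.25 and Sc5d from 0.15 to 0.23.

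Mutant and WT cells, both on vehicle, show these genes before the drug. Mutant cells had more of 3 fatty acid genes, Scd2, Acaca and Fasn, by 26.3% to 41.6%, and less Fdps, which decreased by 25.9%. Of the 32 members, 4 (12.5%) were higher and 2 (6.25%) lower, against 16.9% of all tested genes higher and 14.7% lower. The median log2 fold change was 0.03 for the members and 0.02 for all tested genes. This comparison and the one with SHP099 share the mutant vehicle libraries, so opposite signs in them are not independent.

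Scd2 (chromosome 19, 44293674 to 44306864) had 595, 561 and 528 CPM in WT and 807, 756 and 821 CPM in mutant libraries. There was no overlap, and the change was 0.50 ± 0.07 (adjusted p = 0.0011), the largest of the 32. Acaca rose by 0.36 ± 0.04 (adjusted p = 0.00041) from 71.4, 66.6 and 70.4 CPM, and Fasn by 0.34 ± 0.06 (adjusted p = 0.0031), both without overlap. The calls of these 3 genes held in all 17 alternatives, and with the length and GC trend removed the changes were 0.46, 0.26 and 0.32. Acly and Fads1 were higher in each mutant library but did not pass (0.11 ± 0.04, adjusted p = 0.074, and 0.13 ± 0.05, adjusted p = 0.053), and Fads2 was lower in each (-0.09 ± 0.04, adjusted p = 0.18).

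In the sterol branch, Fdps had 289, 271 and 254 CPM in WT libraries, all above the mutant ones, and fell by 0.43 ± 0.06 (adjusted p = 0.00099), a call that held in all 17 alternatives. Tm7sf2, at 16.4, 16.8 and 16.5 CPM in WT, fell by 0.23 ± 0.06 (adjusted p = 0.026). That call was lost without WT replicate 1, WT replicate 2 or mutant vehicle replicate 1, and with the block (adjusted p = 0.071). Sc5d, at 52.3, 50.6 and 50.1 CPM in WT, rose by 0.11 ± 0.03 (adjusted p = 0.035), a call kept in 1 of 17 alternatives, with a value of 0.02 once the length and GC trend was removed. The 4 genes Pmvk, Fdft1, Lss and Nsdhl lay lower in each mutant library with adjusted p of 0.071 to 0.08. Of all 32 members, 7 lay below every WT library and 8 above. Of the 13270 genes tested, 2721 lay below and 3265 above, so separation of the libraries alone was near the background. None of the 5 SREBP control genes passed, with changes from -0.03 to 0.07, and their libraries overlapped.

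The comparison of SHP099-treated mutant cells with WT vehicle cells shows where the levels stood after treatment. Neither group in it holds mutant vehicle libraries, but these enter its p-values through the spread shared by all 9 libraries. Of the 32 members, 5 (15.6%) were higher and 3 (9.38%) lower, against 15.4% and 16.3% of all tested genes. In every treated library 8 members lay above all WT libraries and 4 below, against 3240 and 3112 of the 13270 genes tested. Acaca differed from WT by -0.03 ± 0.04 (adjusted p = 0.54), with overlap, and by 0.08 (adjusted p = 0.099) with the length and GC trend removed. Fasn was lower than in WT by 0.39 ± 0.06 on the log2 scale (adjusted p = 0.0019), a difference of -0.15 (adjusted p = 0.054) with the length and GC trend removed. Scd2 was above WT in each treated library (0.34 ± 0.07, adjusted p = 0.0063). So of the 3 genes that were higher in mutant cells, the treated level was near WT for Acaca, below it as counted for Fasn and above it for Scd2.

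Among the sterol genes, Ebp and Sc5d stood above WT in each treated library, by 0.35 ± 0.05 and 0.27 ± 0.03 (adjusted p = 0.0017 and 0.00087), in all 17 alternatives. Fdps was lower than in WT by 0.18 ± 0.06 with overlap (adjusted p = 0.042, lost in 8 alternatives), and Tm7sf2 differed by 0.00 ± 0.06. Lss was lower in each treated library, at 57.1, 54.3 and 56.8 CPM against 63.8, 66.7 and 67.7 CPM in WT (-0.24 ± 0.04, adjusted p = 0.0047). In the same fit neither of the other comparisons called Lss, which changed by -0.12 in each (adjusted p = 0.095 with SHP099 and 0.071 with genotype). Of the 17 alternatives, 1 called it lower with SHP099 and 3 with genotype. Hmgcs1 and Fads1 were also called higher, at 0.12 ± 0.04 and 0.19 ± 0.05 (adjusted p = 0.049 and 0.015), and the calls were lost in 15 and 5 of 17 alternatives, both of them without SHP099 replicate 3.

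Other genes of the same biology were read from lists around these members, and the counts are to be read against 8.81% of all genes higher and 13% lower with SHP099, and 16.9% and 14.7% with genotype. With SHP099, 4 of 16 other fatty acid genes rose and 3 fell (median log2 fold change 0.08). Elovl6, which elongates palmitate, went from 73.7 ± 2.72 to 59.0 ± 2.41 CPM (SD, n = 3), a change of -0.32 ± 0.05 (SE; edgeR adjusted p = 0.0018), and in WT cells it stood at 49.5 ± 2.19 CPM. Its genotype change of 0.57 ± 0.05 (adjusted p = 0.00016) had the smallest p of that list. Slc25a1, the mitochondrial citrate carrier, and Tecr, the last reductase of fatty acid elongation, rose by 0.20 ± 0.04 and 0.19 ± 0.04 with SHP099. In mutant against WT cells 5 of these 16 rose and 2 fell (median 0.06), with Acss2, an acetyl-CoA synthetase, at -0.54 ± 0.07.

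Of 13 sterol storage and transport genes, 2 rose and 1 fell with SHP099 (median 0.08), led by Npc2, which carries cholesterol out of lysosomes, at 218 ± 5.41 and 291 ± 0.782 CPM (0.42 ± 0.05, adjusted p = 0.00072). Between mutant and WT cells 4 rose and 2 fell (median 0.03), with Soat1, which esterifies cholesterol for storage, at 0.34 ± 0.06. Of 15 isoprenoid branch genes, none rose and 3 fell with SHP099 (median 0.02), namely Pggt1b, Rabggtb and Rabggta, subunits of enzymes that attach geranylgeranyl groups to small GTPases (-0.29 ± 0.06, -0.33 ± 0.08 and -0.20 ± 0.05). At this list size 3 lower genes are near the 13% of all genes. Rabggtb was higher in mutant than WT cells by 0.49 ± 0.08, and 4 of the 15 rose there with none lower (median 0.03). Of 10 targets and partners of the sterol receptor LXR, 1 rose with SHP099, Smpdl3a at 0.37 ± 0.11 (median 0.06), and 2 rose and 2 fell with genotype (median 0.01). Of 14 genes of SREBP activation and sterol-regulated degradation, 1 fell with SHP099, Sp1 at -0.14 ± 0.04 (median -0.02), and 5 rose and 1 fell with genotype (median 0.10), with Erlin1 at 0.20 ± 0.04.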

How the data were processed

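The table holds raw counts per gene symbol as deposited by the authors. FastQC, STAR, featureCounts, Subread and the build mm10 are named in the submitters' processing notes. For versions, annotation release and strand setting, the status is: not given in the sources used here. Libraries were made with a stranded mRNA kit per the labels' protocols. The column of SHP099 replicate 3 is spelled unlike the sample's title in its final character. The members and lists were chosen with earlier results of these data known. All 32 members are named, and list genes are named from the 3 smallest p of each list.

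The fits used edgeR 4.0.16 under R 4.3.3. The filter filterByExpr (minimum count 10) kept 13270 genes, TMM scaled the libraries, and 1 quasi-likelihood model of 3 group means was fitted to all 9 libraries. Tests were two-sided with Benjamini-Hochberg adjustment over all tested genes and a threshold of 0.05. The SE is the absolute log2 fold change over the square root of F. The biological coefficient of variation was 9.04%. Replicates differed by more than sampling noise. On raw counts, Rn45s included, chi-square per degree of freedom was 107 and 110 for pairs with SHP099 replicate 3. It was 10.5 to 24.4 for the other pairs. Replicate numbers come from the titles. Deviations of same-numbered vehicle and SHP099 libraries of mutant cultures correlated at 0.54, 0.60 and 0.56, so the numbers pair them. Transcript lengths and coordinates are from GENCODE M21 on GRCm38. Scripts were tested on simulated data. Alternatives were RLE size factors, DESeq2 1.42.0, other filters, leaving out each library, the replicate block, the 2 compared groups alone, and a lowess trend (span 0.3) on length and GC content.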

Additional observations from a re-analysis of the deposited data

How the results depend on the processing

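The calls of Fasn, Acaca, Ebp, Fdft1 and Sc5d with SHP099 and of Scd2, Acaca, Fasn and Fdps with genotype held in all 17 alternatives, and no called member changed sign. With SHP099, 8 members were higher and 3 lower. With 1 library left out these counts ran from 5 to 8 and from 2 to 3, lowest for the higher calls without mutant vehicle replicate 3, SHP099 replicate 1 or SHP099 replicate 3. With the replicate block 11 were higher and 8 lower, with the length and GC trend removed 3 and 2, and with both 9 and 3. The genes called in all were 2890, from 1767 (SHP099 replicate 3 left out) to 2976 in fits lacking 1 library, 5563 blocked and 5243 blocked with the trend removed. Between mutant and WT cells, 4 members were higher and 2 lower, 3 to 4 and 1 to 5 with 1 library left out. The lower count was 5 with RLE size factors, 6 with a filter of 1 CPM in 3 libraries, 3 with 2 groups alone, 3 with the trend removed, and 1 with the block, alone or with the trend removed. Between WT and mutant libraries the numbers pair nothing (correlations -0.14 to -0.07). The genes called were 4199, from 2879 to 3886 in fits lacking 1 library, 2072 blocked and 1852 with both. For treated mutant against WT cells, 5 members were higher, 3 to 5 in fits lacking 1 library and 3 when blocked, alone or with the trend removed, and 3 were lower, 2 to 3 in fits lacking 1 library and 4 when blocked or with DESeq2. The genes called were 4209, from 2826 to 4403, and 2178 with the block and the trend removed. The cause of these differences was not tested. No scaling moved the median of all genes by over 0.1 on the log2 scale. Counts were high for all members, so depth limits little here, and the 3 libraries per group set the precision.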
